A study of Mus musculus with 2 samples.

Results

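Ductal myofibroblast-like cells are stromal cells of the neonatal mouse lung named for the alveolar ducts, and here they were chosen by their RNA alone, with no record of where they lay. Cells with 200 to 6000 genes, at most 10% mitochondrial UMIs and no *Epcam* or *Ptprc* UMI were taken as stromal. Cells with RNA of alveolar fibroblasts (*Inmt* and *Scube2* above 1 UMI together), pericytes (*Higd1b*), contractile airway or peribronchial cells (*Des* and *Actg2* above 1 UMI together) or adventitial fibroblasts (*Clec3b*) were removed. The rest were selected on 22 genes. A cell had to carry at least 1 UMI of at least 4 of 11 ductal genes (set B: *Aspn*, *Wnt5a*, *Enpp1*, *Thbs2*, *Serpine2*, *Loxl2*, *Sema3c*, *Col12a1*, *P4ha3*, *Pcsk5* and *Prss35*), and more of these than of 11 alveolar myofibroblast genes (set A: *Vsnl1*, *Car2*, *Eng*, *Ltbp2*, *Egfem1*, *Agt*, *Gucy1a1*, *Etv1*, *Cd248*, *Rerg* and *Trim67*). This gave 1895 of 23349 cells, 778 of 10999 in the control library and 1117 of 12350 in the deletion library. The mirror rule, at least 4 genes of set A and more of set A than of set B, gave 1069 and 598 alveolar myofibroblast-like cells, the class most like them.

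The study asked how hedgehog-interacting protein shapes the fate of lung myofibroblasts after birth, and single-cell RNA was sequenced from the lungs of 1 mouse per group at postnatal day 14. Both mice were *Gli1 creERT/+*:*Hhip flox/flox*. The control mouse received oil and the conditional knockout mouse (CKO) received tamoxifen, daily over the first days of life, so only the CKO mouse had Cre activity induced. Cre was driven by *Gli1*, a gene that responds to hedgehog signals, so recombination was limited to cells with *Gli1* activity around the injections, and cells that never had it kept the gene. Sorted stromal cells, negative for endothelial, immune and epithelial surface proteins, were mixed with sorted epithelial cells at 3 to 1 before loading, so shares of all cells reflect that mixture.

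The control library held 43291709 UMIs and the CKO library 52338969. Ductal myofibroblast-like cells contributed 2232731 UMIs in control and 3276186 in CKO, with medians of 2561 and 2700 UMIs and 1498 and 1568 genes per cell. Their median mitochondrial share was 0.432% in control and 0.708% in CKO. Between the libraries 193 barcodes were shared, and 9 control and 20 CKO ductal myofibroblast-like cells carried 1 of these. For 2 barcodes the cells of both libraries were of this kind. With 1 mouse per group there were no replicates and no test was made. Intervals, exact Poisson or exact binomial (Clopper-Pearson) at 95%, cover counting error only.

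The libraries also stood apart by sex-linked genes. *Xist*, the RNA that silences 1 X chromosome in females, had 0 UMIs in control and 1097 in CKO ductal myofibroblast-like cells. The Y-linked genes *Eif2s3y* and *Ddx3y* had 171 and 117 UMIs in control and 0 in CKO. Sex and the effects of tamoxifen itself cannot be told apart from the deletion in any difference between the libraries.

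Myofibroblasts are fibroblast-like cells that make elastin and contract, and in the growing lung they shape the alveolar septa and ring the openings of the ducts. Hedgehog ligands from the epithelium bind the receptor patched on stromal cells, which frees smoothened and lets GLI factors switch on targets such as *Gli1*, *Ptch1* and *Hhip*. HHIP binds the ligands and so dampens the pathway, and it is itself a target.

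Chosen cells carried a median of 7 set B genes and 4 set A genes in both libraries, while mirror-rule cells carried medians of 4 set B genes in both and 8 and 7 set A genes in control and CKO. All of the marker genes that named the class were present. *Aspn*, a matrix proteoglycan gene, was found in 97.0% of control and 92.3% of CKO cells, and *Wnt5a*, a Wnt ligand gene, in 79.0% and 85.5%. Thinned to 2000 UMIs, *Aspn* was found in 93.7% and 88.5% of ductal cells and in 5.95% and 7.64% of epithelial cells with at least 2 *Epcam* UMIs (*Epcam* cells). The shares were 51.2% and 35.5% for *Enpp1*, 55.3% and 70.0% for *Thbs2*, 42.7% and 63.2% for *P4ha3*, and 44.6% and 27.1% for *Prss35*. These are the genes the cells were selected on, so their levels describe the rule. They also differed between the libraries, with *Prss35* at 252 CPM (UMIs per 1000000) in control and 132 in CKO and *P4ha3* at 208 and 407. The membership of the class can therefore differ between the libraries.

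The rule sets an edge within a range of cells. In control, 191 of the 778 cells had exactly 4 set B genes or a lead of 1 over set A, and in CKO 232 of 1117 did. Just outside, 60 control and 81 CKO cells had 3 set B genes and a lead, and 110 and 143 had at least 4 set B genes but as many of set A. Another 538 and 369 cells had at least 4 set B genes and more of set A. *Aspn* was found in 86.0% of control cells with exactly 4 set B genes and in 53.3% of those with 3.

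Some genes outside the rule followed a cell's lead, the number of set B genes above that of set A. *Hhip* in control was at 1421 CPM in cells with a lead of 1, 2060 CPM with a lead of 2 to 3, and 2834 CPM with a lead of 4 or more. The same order held in CKO at lower levels, with 207, 338 and 417 CPM. *Pdgfra*, the receptor gene that marks alveolar myofibroblasts, ran the other way, from 587 through 352 to 227 CPM in control and from 761 through 499 to 265 CPM in CKO. Among the genes followed by lead, *Cdh4* and *Lgr6* kept the order of *Hhip* in both libraries, and *Cyp2e1* and *Entpd1* that of *Pdgfra*. The others did not keep 1 order in both. *Acta2*, the smooth muscle actin gene, was at 704, 679 and 654 CPM in control, with overlapping intervals, and at 1533, 1302 and 1524 CPM in CKO. *Tgfbi*, an alveolar marker gene outside the rule, was lower with a larger lead in control, at 1833, 1568 and 1478 CPM, but not in CKO, at 2948, 3022 and 3088 CPM. *Igfbp5* was at 950, 1497 and 1642 CPM in control and at 528, 840 and 766 CPM in CKO.

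Of the stromal-gated cells, ductal myofibroblast-like cells made up 10.0% in control (95% interval 9.36% to 10.7%) and 12.7% in CKO (12.04% to 13.4%). With each cell thinned to 2000 UMIs before the rule was applied, the shares were 10.9% and 14.9%. Against the mirror-rule cells they were 42.1% of both kinds in control and 65.1% in CKO, or 41.3% and 66.8% after thinning. These shares describe what the rule selects, because genes of the rule themselves differed between the libraries. Without the limit on *Des* and *Actg2*, the shares were 17.1% and 23.9%, and 551 of 1329 control and 984 of 2101 CKO cells that met the rest of the rule carried at least 2 UMIs of these genes.

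RNA of other cell types was present as well. *Sftpc*, the surfactant gene of alveolar epithelium, was found in 99.5% of control and 96.2% of CKO ductal myofibroblast-like cells, at 22395 and 18642 CPM. Alveolar myofibroblast-like cells held a like level, 21356 and 15998 CPM. In *Epcam* cells it was at 265309 and 243134 CPM. Over the 8 epithelial marker genes the median cell held 6 UMIs in control and 4 in CKO, and *Epcam* was 0 by the rule. The median cell held 1 UMI over 4 haemoglobin genes, summed to 12461 CPM in control and 15151 CPM in CKO, and 0 UMIs over the endothelial, immune, mesothelial, pericyte, adventitial and alveolar fibroblast lists in both libraries. Over 8 airway smooth muscle genes, *Des* the most abundant, it held 1 UMI in both libraries. Any such UMI was found in 56.2% of control and 62.2% of CKO cells, and the sums were 318 and 373 CPM. Of the 2 tested, *Lmod1* was at least 2-fold higher in CKO, beside 1.9% of all 5148 genes tested. Summed over 6 endothelial genes the level was 32.7 CPM in control and 21.1 CPM in CKO, with *Plvap* the most abundant. The sums were 142 and 160 CPM for mesothelial, 86.4 and 72.0 CPM for pericyte, and 354 and 300 CPM for adventitial genes, and 41.5% of control and 38.5% of CKO cells held a UMI of the last list. The alveolar fibroblast list differed between the libraries. Its 7 genes, *Limch1* the most abundant, summed to 170 CPM in control and 363 CPM in CKO, and 28.1% and 44.4% of cells held a UMI of them. Of its 3 genes tested, 2 were called higher (at least 2-fold, beside 1.9% of all genes tested), *Npnt* and *Itga8*, with a median log2 ratio of 1.96. Of the 6 immune genes, summed to 1839 and 1645 CPM, *Lyz2* was the most abundant and *Ptprc* was 0 by the rule. So were *Higd1b* of the pericyte list and *Clec3b* of the adventitial list. The rule also held *Inmt* with *Scube2* (alveolar fibroblast list) and *Des* with *Actg2* (airway list) to at most 1 UMI per pair. Low values of these lists are therefore partly set by the selection. The log2 ratio of *Hbb-bs*, a haemoglobin gene, was 0.29, and 3.41 without likely doublets. How far such RNA enters other values was not tested.

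The first comparison asks what sets ductal myofibroblast-like cells apart from alveolar myofibroblast-like cells within each library. Since both kinds were chosen by RNA, only genes outside the rule are given, as a description. The gene had to lie at least 2-fold to the same side in both libraries. Of 5033 genes, 83 were higher in ductal cells (1.65%) and 70 were lower (1.39%). Thinned to 2000 UMIs, a setting chosen after seeing the data, 52 were higher and 38 lower.

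Among genes higher in ductal cells, the one with the largest ratio held in both libraries was *Mpped2*, which encodes a metallophosphoesterase-domain protein. It was at 61.8 CPM in control ductal cells and 4.27 CPM in alveolar cells, and at 50.7 and 3.81 CPM in CKO. *Scx*, a transcription factor gene of tendon and ligament cells, was at 146 CPM against 6.71 CPM in control and 66.8 against 7.62 CPM in CKO. *Ace*, which encodes the enzyme that makes angiotensin II, was at 44.8 against 4.27 CPM and at 150 against 16.3 CPM. All of these were sparse in the alveolar kind. *Ptgis*, the prostacyclin synthase gene, was at 302 against 19.2 CPM in control and 226 against 26.7 CPM in CKO. The other genes among the leading 12 were *Adap1*, *Col14a1*, *Mfap5*, *Col15a1*, *Ssc5d*, *Pcdh7*, *Bmp3* and *Rgs5*, with log2 ratios from 2.04 to 3.72. *Col14a1*, *Mfap5* and *Col15a1* encode matrix proteins, and *Col14a1* is also the most abundant gene of the adventitial fibroblast list. Among genes lower in ductal cells, *Gap43* (log2 ratios −5.14 and −4.20) and *Nostrin* (−5.15 and −4.04) lay further apart than *Mpped2*.

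Several markers outside the rule lay on the side expected. *Hhip* had a log2 ratio of ductal over alveolar cells of 2.61 in control and 1.32 in CKO. *Cdh4*, a cadherin gene that the study names for these cells, was at 124 CPM against 27.4 CPM in control and at 199 against 65.3 CPM in CKO. *Lgr6*, a receptor gene for R-spondins, was at 128 against 32.6 CPM and at 260 against 69.1 CPM. *Pdgfra* was lower in ductal cells, with 352 against 1139 CPM in control and 454 against 1245 CPM in CKO. *Lef1*, a transcription factor gene of the Wnt pathway, is on neither marker list. It was taken from the genes lowest in ductal over alveolar cells, so its side was set by that choice. *Lef1* had 11 UMIs in control and 17 in CKO ductal cells. In alveolar cells it was at 93.6 and 53.9 CPM. Other markers differed less or in 1 library. *Cyp2e1*, listed with the alveolar markers, had a log2 ratio of ductal over alveolar cells of −0.16 in control and −1.51 in CKO, and *Tgfbi*, listed there too, −0.47 and 0.10. Within ductal cells the 9 ductal markers outside the rule, *Hhip* the most abundant, summed to 5314 CPM in control and 3102 CPM in CKO, and the 6 alveolar ones, *Tgfbi* the most abundant, to 3367 and 4501 CPM. These sums follow their most abundant gene. By gene, 6 of the 9 ductal markers had a ratio of CKO over control above 0 and 3 below, with a median of 0.19, and 2 of the 6 alveolar ones lay above and 4 below, with a median of −0.10.

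The second comparison is the one the study was built for, namely what changed in these cells after *Hhip* was deleted. Genes outside the rule were compared as CPM summed over all ductal myofibroblast-like cells of a library, and a gene was called where the libraries differed at least 2-fold. To be tested, a gene needed 50 UMIs in all and detection in at least 10% of ductal cells of 1 library or the other, which 5148 genes had. Called genes numbered 98 higher in CKO (1.9%) and 62 lower (1.2%). The median log2 ratio over all 5148 was 0.01, with quartiles at −0.18 and 0.21. Of the genes called higher, 4 lie on the X chromosome, and of those called lower, 2 lie on the Y.

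*Hhip*, the deleted gene (ENSMUSG00000064325; GRCm38 chromosome 8, 79965851 to 80058006), stood at 2224 CPM in control against 346 in CKO. It fell by 2.69 on the log2 scale (interval −2.78 to −2.59). A UMI was found in 81.7% of control and 48.3% of CKO cells, or in 79.3% and 42.4% of cells thinned to 2000 UMIs. In *Epcam* cells, which should lack the gene, at median depths of 5730 and 6522 UMIs, the shares were 8.50% and 6.21%, and 4.51% and 2.02% after thinning. *Hhip* RNA was therefore found in a larger share of ductal than of *Epcam* cells in CKO. Whether the shares in *Epcam* cells measure RNA from other cells was not tested. Gene counts do not tell deleted from intact transcripts. In alveolar myofibroblast-like cells *Hhip* stood at 363 CPM in control against 139 in CKO (log2 ratio −1.39).

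Of other genes that respond to the pathway, *Ptch1* and *Foxf1* were called higher in CKO. *Ptch1*, which encodes the receptor and is a target, stood at 36.7 CPM in control against 114 in CKO (log2 ratio 1.64, interval 1.29 to 2.00). *Foxf1*, a forkhead factor gene of lung mesenchyme that responds to hedgehog, was at 83.3 and 241 CPM (log2 ratio 1.53, interval 1.30 to 1.77). *Gli1*, the target used to drive Cre, was below the detection minimum with 12 UMIs in control and 98 in CKO (log2 ratio 2.48, interval 1.61 to 3.48). Both libraries carried the *Gli1 creERT* allele, so its level is that of a mouse with that allele. *Foxl1*, a forkhead factor gene that also responds to hedgehog, was sparser still with 1 and 24 UMIs (log2 interval 1.42 to 9.39). The log2 ratios in alveolar cells were 0.66 for *Ptch1*, 0.62 for *Foxf1* and 1.31 for *Gli1*.

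Other genes of the pathway did not all share this direction. *Smo*, which encodes the signal transducer smoothened, stood at 55.1 CPM in control against 54.0 in CKO. The co-receptor genes *Gas1* and *Boc* were at 268 and 67.2 CPM in control and at 175 and 40.3 CPM in CKO, short of 2-fold. *Gli3*, whose product acts mainly as a repressor, was at 63.6 and 31.7 CPM, on the 2-fold line (log2 interval −1.38 to −0.63). It missed the call in 13 of the settings tried. With the rule applied after thinning to 2000 UMIs, which changed the cells chosen as well as the depth, the log2 ratio was −0.86. Of the 19 hedgehog genes listed, 8 were tested, with a median of −0.32. Among them 2 were called higher and 2 lower (*Hhip* and *Gli3*), beside 1.9% and 1.2% of all genes tested. The ligand genes *Shh* (3 and 1 UMIs) and *Ihh* (0 in both) were all but absent from these stromal cells.

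**Figure D1:**
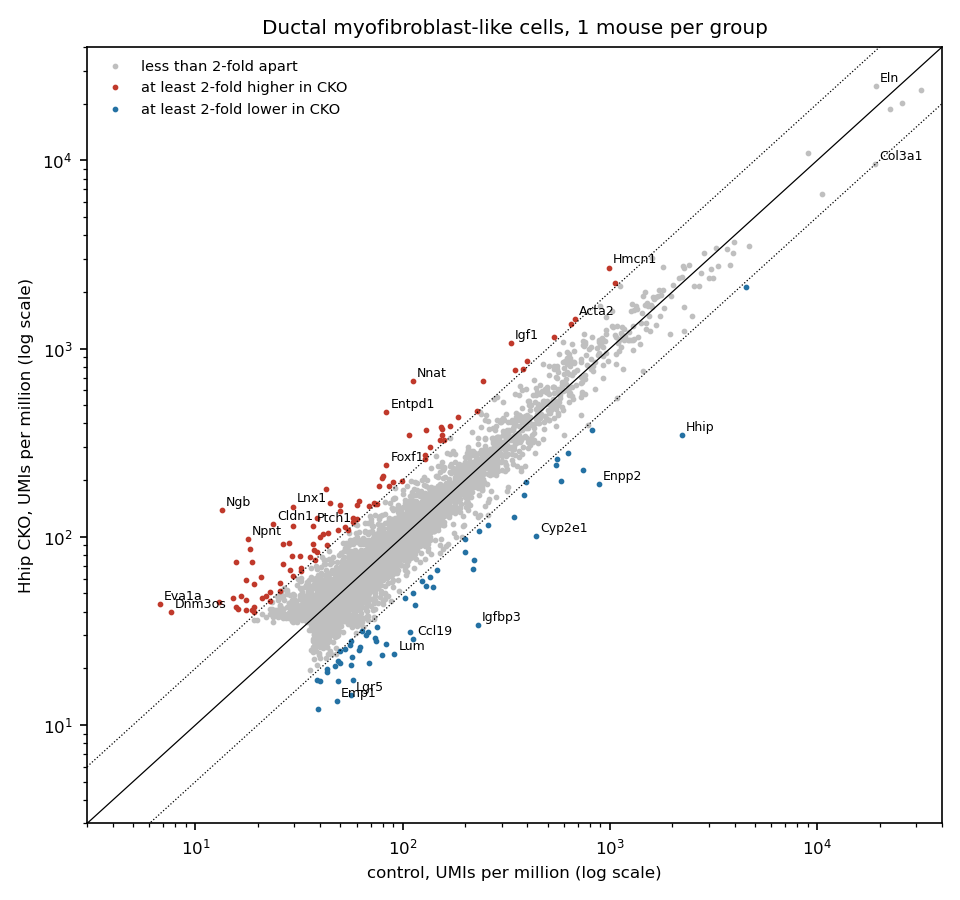
Level of each of the genes tested in ductal myofibroblast-like cells, control on the horizontal and CKO on the vertical axis, both as CPM on log scales. Solid line, equal levels; dotted lines, 2-fold; 98 genes lie at least 2-fold higher in CKO and 62 lower, *Xist*, *Eif2s3y* and *Ddx3y* among them but not drawn because they were 0 in 1 library.

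Growth factor signals by way of IGF1 come next, since the study follows *Igf1* as a stromal signal. *Igf1* (ENSMUSG00000020053; chromosome 10, 87858265 to 87937042) rose from 331 to 1069 CPM (log2 ratio 1.69, interval 1.57 to 1.81). It was found in 50.6% of control and 81.9% of CKO cells, and in 42.9% and 80.0% after thinning. In *Epcam* cells the shares were 5.36% and 14.2%, and 1.63% and 6.35% after thinning, far lower but also different between libraries. In control the gene was higher in ductal than in alveolar cells, where it was at 109 CPM and rose to 509 CPM in CKO.

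Some genes whose products bind and hold IGF were lower in CKO, not all by 2-fold. *Igfbp3* fell from 231 to 33.9 CPM (log2 ratio −2.77, interval −3.08 to −2.47), the lowest of all genes tested that had UMIs in both libraries. *Igfbp4* fell from 739 to 227 CPM (log2 ratio −1.70). *Igfbp5* at 1441 and 757 CPM and *Igfbp7* at 2286 and 1240 CPM were lower in CKO but short of 2-fold. *Pappa*, which encodes a protease that frees IGF from IGFBP4, fell from 56.9 to 22.9 CPM. *Igfbp6* was at 125 and 58.0 CPM, with a log2 ratio of −1.10 that moved to −0.05 when 3 set B genes sufficed. The receptor gene *Igf1r* was at 53.7 and 87.3 CPM (log2 ratio 0.70). Of the 17 IGF genes listed, 12 were tested, with a median of −0.73. Among them 1 was called higher and 4 lower, beside 1.9% and 1.2% of all genes tested.

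Of the contractile genes tested, 4 of 15 were called higher within the rule, and their ratios changed with 1 limit of the rule. *Acta2* (ENSMUSG00000035783; chromosome 19, 34241090 to 34255590) stood at 675 CPM in control against 1428 in CKO (log2 ratio 1.08, interval 1.00 to 1.17). The shares of cells with a UMI after thinning were 46.9% and 75.8%, against 6.26% and 9.41% of *Epcam* cells. *Myh11*, the smooth muscle myosin gene, was at 169 and 387 CPM, and *Tpm1*, a tropomyosin gene, at 646 and 1354 CPM. *Lmod1*, an actin-nucleating gene, was at 32.2 and 65.6 CPM. *Tagln*, which encodes an actin-binding protein, was just short of 2-fold at 1115 and 2151 CPM (log2 ratio 0.95). Of the 20 genes listed, 15 were tested, with 14 above 0, 1 below and a median of 0.53. Calls were 4 higher and 0 lower, beside 1.9% and 1.2% of all genes tested. Of the 8 airway smooth muscle markers 2 were tested, *Lmod1*, already counted here, and *Synpo2* (0.99), with a median log2 ratio of 1.01. Those not tested went both ways, with *Cnn1* at 0.96, *Myocd* at 0.74, *Actc1* at −0.70 and *Chrm2* at −0.97. *Des* and *Actg2* are limited by the rule.

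The rule removes cells with 2 or more *Des* and *Actg2* UMIs, and these cells held more contractile RNA. With that limit dropped, *Acta2* stood at 2864 CPM in control against 3023 in CKO (log2 ratio 0.08). None of the 4 called contractile genes then reached 2-fold, with ratios of 0.19 for *Myh11*, 0.56 for *Tpm1* and 0.36 for *Lmod1*, and *Tagln* had 0.39. When 3 set B genes sufficed, *Acta2* (0.94) and *Lmod1* (0.99) lay just short of 2-fold and *Tpm1* (1.00) on the line. In the removed cells alone *Acta2* was at 5343 and 4443 CPM (log2 ratio −0.27). *Cnn1*, the calponin gene, was at 524 and 194 CPM there (log2 ratio −1.43), and *Des* itself at 1331 and 765 CPM. Over all cells that met the rest of the rule, *Acta2* was therefore not 2-fold apart, while *Igf1* (1.86), *Ptch1* (1.60) and *Hhip* (−2.46) kept their side of the call. Whether the removed cells are ductal or airway cells, and how much of the contractile difference comes from where the limit falls, was not tested.

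**Figure D2:**
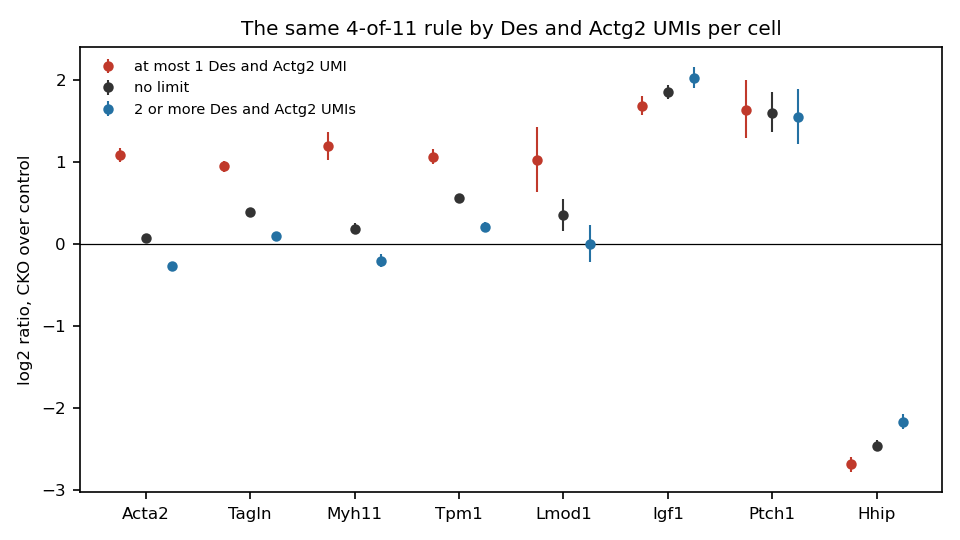
Log2 ratio of CPM, CKO over control, in cells that meet the rest of the ductal rule, with at most 1 *Des* and *Actg2* UMI, with no such limit, and with at least 2 such UMIs (bars, 95% counting intervals). *Acta2* lies at 1.08, 0.08 and −0.27 and *Igf1* at 1.69, 1.86 and 2.03.

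Elastic fibres are a main product of myofibroblasts, and their genes were followed as a list. *Eln*, the elastin gene, stood at 19142 CPM in control against 24856 in CKO (log2 ratio 0.38). *Hmcn1*, which encodes the matrix protein hemicentin, rose from 990 to 2693 CPM (log2 ratio 1.44, interval 1.38 to 1.51). *Fbln1*, a fibulin gene, fell from 547 to 240 CPM (log2 ratio −1.19). Of 19 genes listed, 16 were tested, with a median of 0.04. *Hmcn1* and *Fbln1* were the ones called, beside 1.9% higher and 1.2% lower over all genes tested. *Fbn2*, a fibrillin gene of immature tissue below the detection minimum, had 87 UMIs in control and 30 in CKO.

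Fibrillar collagens, which give tissue its tensile strength, were followed together with the other collagens. *Col3a1*, a fibrillar collagen gene, was at 19106 CPM in control and at 9575 in CKO, just short of the call (log2 interval −1.02 to −0.98), with log2 ratios from −1.04 to −0.89 over the settings tried. *Col1a1* was at 3061 and 2634 CPM and *Col1a2* at 2263 and 2737 CPM. *Col15a1*, a basement membrane collagen gene, was at 60.5 and 124 CPM, with a log2 ratio of 1.04 that was 0.89 when *Aspn* was left out of the rule. Among 17 collagen genes listed, 13 were tested, with a median of −0.14. Calls were 1 higher and 0 lower, beside 1.9% and 1.2% of all genes tested.

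Other matrix genes included 4 called higher and 1 lower of the 19 tested, beside 1.9% and 1.2% of all genes tested. Their median was 0.09. *Fn1*, the fibronectin gene, rose from 153 to 385 CPM. *Npnt*, which encodes the integrin ligand nephronectin, was at 17.9 and 97.7 CPM, and *Itga8*, which encodes part of its receptor, at 18.8 and 73.3 CPM. These latter genes also mark alveolar fibroblasts, and cells rich in 2 other such markers were removed by the rule. *Itga8* was not called with no limit on *Des* and *Actg2*, with a log2 ratio of 0.20, and *Npnt* moved from 2.45 to 1.37 under that setting. In *Epcam* cells *Npnt* was at 94.8 and 216 CPM and *Itga8* at 16.2 and 62.4 CPM, so *Npnt* was lower in ductal than in *Epcam* cells and *Itga8* little higher. *Ccn2*, a matricellular gene, fell from 628 to 278 CPM. *Timp3*, a metalloprotease inhibitor gene, was at 381 and 782 CPM, with a log2 ratio of 1.04 that was 0.87 with no *Des* and *Actg2* limit.

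Signal molecules of the Wnt, BMP and FGF families were followed as lists, and their calls stand beside 1.9% higher and 1.2% lower over all 5148 genes. In the Wnt list, 15 of 30 genes were tested, with *Lgr6* higher and *Lgr5* lower and a median of 0.03. *Lgr6* stood at 128 CPM in control against 260 in CKO, a log2 ratio of 1.02 that was 0.94 with the rule applied after thinning. *Lgr5*, which encodes a related R-spondin receptor, fell from 56.4 to 14.3 CPM (log2 ratio −1.98). A pair of genes for secreted Wnt inhibitors lay below the detection minimum. *Wif1* had 98 UMIs in control and 9 in CKO (log2 ratio −4.00, −5.17 to −3.01), and *Notum* had 63 and 8 (−3.53, −4.80 to −2.46). With the rule applied after thinning, which also changed the cells chosen, the ratios were smaller, −2.34 for *Wif1*, outside that interval, and −2.77 for *Notum*. *Axin2*, a general Wnt target, was at 53.3 and 38.2 CPM, short of 2-fold.

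In the TGFβ and BMP list, 23 of 33 genes were tested, with a median of 0.18. *Bmp3*, the gene of a BMP that opposes others of its family, was at 41.2 and 103 CPM, with a log2 ratio of 1.32 that was 0.85 with no *Des* and *Actg2* limit. *Scx* was at 146 and 66.8 CPM, with a log2 ratio of −1.13 that was −0.92 with the rule applied after thinning. *Id3*, a common BMP target, was at 782 and 391 CPM, just short of the call (log2 interval −1.11 to −0.90). In the PDGF and FGF list 9 of 23 genes were tested, with 1 higher, 0 lower and a median of −0.07. That gene was *Fgfr2*, a receptor gene for FGF7 and FGF10, at 69.0 and 146 CPM (log2 ratio 1.09), and it lay on the 2-fold line with no *Des* and *Actg2* limit (1.00). *Fgf10*, a ligand gene of lung mesenchyme, had 33 UMIs in control and 4 in CKO.

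Guidance genes held 1 call among 10 tested of 24 listed, beside 1.9% higher and 1.2% lower over all genes, with a median of 0.02. *Efnb2*, which encodes a ligand of Eph receptors, fell from 344 to 127 CPM (log2 ratio −1.44). *Cdh4* was at 124 and 199 CPM (log2 ratio 0.69, interval 0.48 to 0.90). It was found in 19.5% and 33.5% of thinned cells against 0.501% and 1.48% of *Epcam* cells.

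Enzymes and receptors of nucleotide, lipid and peptide signals gave some of the largest ratios. Of 14 listed, 6 were tested, with 2 higher and 1 lower (1.9% and 1.2% of all genes tested) and a median of 0.41. *Entpd1*, which encodes the ATP-degrading enzyme CD39, rose from 83.3 to 460 CPM (log2 ratio 2.47, interval 2.24 to 2.69). After thinning a UMI was found in 16.4% of control and 55.0% of CKO cells, against 4.82% and 6.11% of *Epcam* cells. *Enpp2*, which encodes autotaxin, the enzyme that makes lysophosphatidic acid, fell from 886 to 190 CPM (log2 ratio −2.22, interval −2.35 to −2.09). *Ace* rose from 44.8 to 150 CPM (log2 ratio 1.75). Both *Entpd1* (1.59) and *Ace* (1.94) were also higher in CKO alveolar cells, where *Enpp2* had a ratio of −0.81.

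Outside these lists, the largest ratio among the 5148 genes tested that had UMIs in both libraries was that of *Ngb*, which encodes the oxygen-binding protein neuroglobin. It stood at 13.4 CPM in control against 139 in CKO (log2 ratio 3.37, interval 2.83 to 3.95) and was found in 2.54% and 21.4% of thinned cells. In thinned *Epcam* cells the shares were 0.501% and 1.13%. *Nnat*, an imprinted gene for a small membrane protein, rose from 112 to 671 CPM (log2 ratio 2.58, interval 2.39 to 2.78). Its share of thinned cells was 13.7% and 51.5%, against 8.77% and 7.73% of *Epcam* cells. The control share thus lay not far above that of *Epcam* cells and the CKO share well above it. *Eva1a* (2.71) lay between *Ngb* and *Nnat*. Others among the 12 highest were *Dnm3os* (2.39), *Cldn1* (2.30), *Lnx1* (2.29), *Magi1* (2.24), *Fkbp5* (2.22) and *Wfdc1* (2.07).

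At the other end, *Cyp2e1*, which encodes a cytochrome P450, fell from 438 to 101 CPM (log2 ratio −2.12). *Lum*, the lumican gene, fell from 90.9 to 23.8 CPM, and *Gdf10*, a TGFβ family gene, from 79.3 to 23.5 CPM. *Lum* was found in 10.4% of control and 3.67% of CKO cells, so its level rested on few of them. *Ccl19* (−1.96), *Emp1* (−1.84) and *Rgs7bp* (−1.73) were also among the 12 lowest. The count of *Ccl19* is uncertain because the genome holds near-identical copies of that gene.

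Stress and hormone-response genes were followed because dissociation, handling and circulating hormones can move them in every cell. Of 15 glucocorticoid and metallothionein genes listed, 13 were tested, with a median log2 ratio of 0.73. Calls were 6 higher and 0 lower, beside 1.9% and 1.2% of all genes tested. *Fkbp5*, a glucocorticoid target, rose from 18.4 to 85.8 CPM. Its log2 ratio was 2.22, beside 2.24 in alveolar cells and 2.08 in *Epcam* cells, where it rested on 36 and 221 UMIs. *Sgk1* (1.32), *Ddit4* (1.40), *Txnip* (1.15), *Glul* (1.09) and *Mt1* (1.28) were the others, and *Mt1* had 0.68 without the cells richest in immediate early RNA. The immediate early list had 22 of 25 genes tested, 2 higher, 0 lower (1.9% and 1.2% of all genes) and a median of 0.44. These were *Ier3* (1.12, and 0.80 with no *Des* and *Actg2* limit) and *Cebpb* (1.11, and 0.98 when *Serpine2* was left out of the rule). Cells with over 1% of their UMIs in that list made up 18.0% of control and 24.0% of CKO ductal cells. The part of handling or hormones in the other differences was not tested.

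The study also asked whether myofibroblasts become senescent. *Cdkn1a*, which encodes the cell-cycle inhibitor p21, stood at 176 CPM in control against 285 in CKO (log2 ratio 0.70, interval 0.53 to 0.87), short of 2-fold. Without the cells richest in immediate early RNA its log2 ratio was 0.37, outside that interval. In alveolar cells *Cdkn1a* was at 92.7 and 302 CPM (log2 ratio 1.70). *Cdkn2a*, the p16 gene, had no UMI in ductal cells of either library. Of 17 cell-cycle inhibitor and p53-related genes, 11 were tested, with a median of 0.10. Calls were 0 higher and 1 lower, beside 1.9% and 1.2% of all genes tested. The lower gene was *Plk2*, at 66.7 and 29.9 CPM (log2 ratio −1.16, and −0.94 with the rule applied after thinning). None of 14 cycling genes met the minimums for testing, and their sum was 131 CPM in control and 203 CPM in CKO.

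Transcription factors of lung mesenchyme were followed as a list too. Of 32 listed, 18 were tested, with *Foxf1* higher, *Scx* lower (1.9% and 1.2% of all genes tested) and a median of 0.14. *Tbx4*, a limb and lung mesenchyme factor gene, was at 342 and 377 CPM, and *Tbx2* at 340 and 374 CPM. In the retinoid and lipid list 6 of 16 were tested, with 1 higher (1.9% of all genes tested) and a median of −0.08. That gene, *Aldh1a1*, which encodes a retinal-oxidising enzyme, was at 38.5 and 82.7 CPM. Its log2 ratio of 1.10 was 0.88 with the rule applied after thinning.

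**Figure D3:**
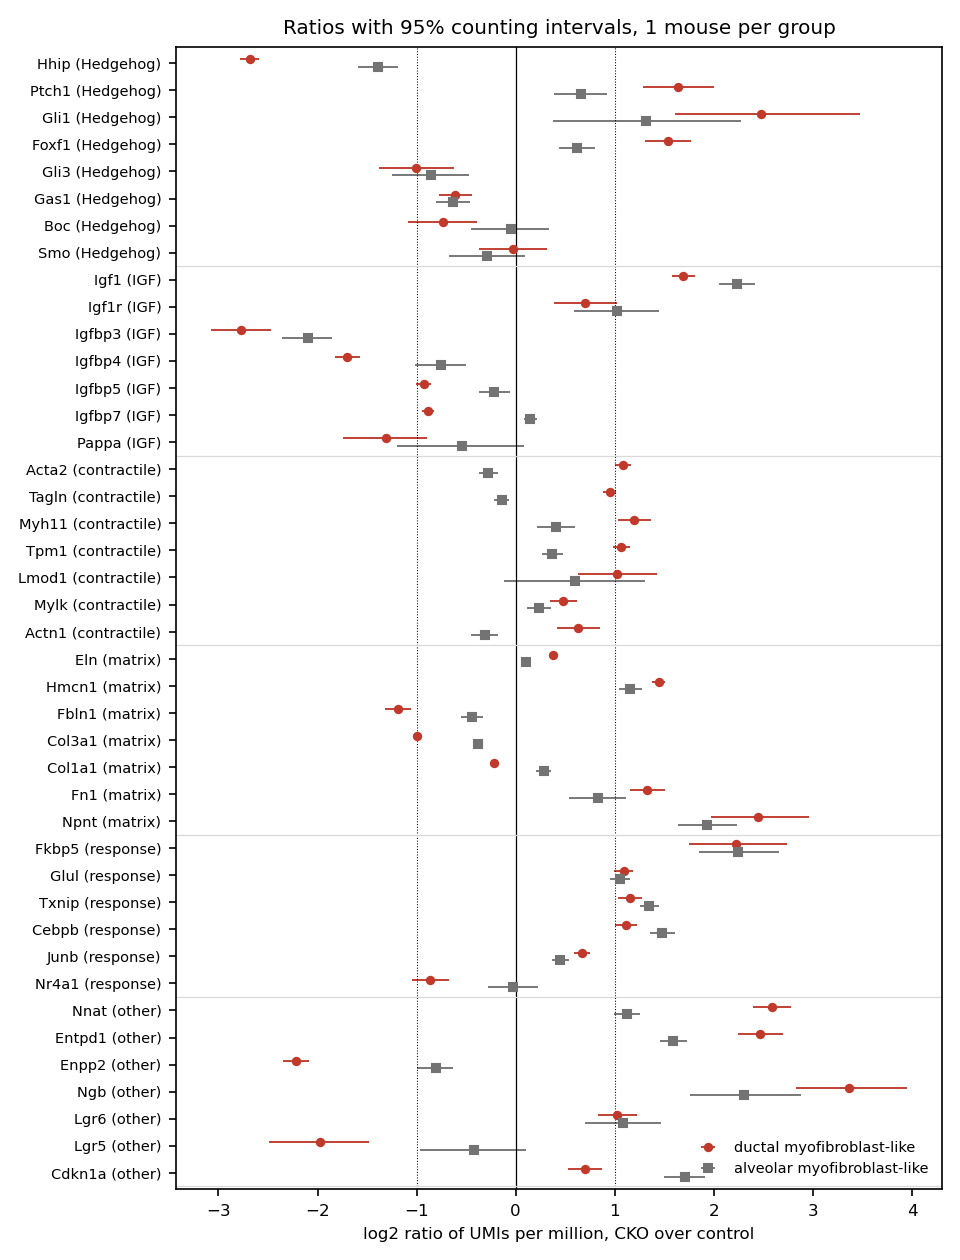
Log2 ratio of CPM, CKO over control, for genes grouped by role, in ductal (circles) and alveolar (squares) myofibroblast-like cells, with 95% counting intervals; dotted lines mark 2-fold. *Igf1* lies at 1.69 and 2.23, *Hhip* at −2.69 and −1.39, and *Acta2* on opposite sides of 0, at 1.08 and −0.27.

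Most genes called in ductal cells lay on the same side of 0 in alveolar cells. Of the 98 called higher, 80 were tested in alveolar cells, where 78 had a ratio above 0 and 51 were also at least 2-fold higher. Of the 62 called lower, 41 were tested there, where 38 had a ratio below 0 and 10 were also at least 2-fold lower. In *Epcam* cells, 17 of 58 tested were at least 2-fold higher and 2 of 23 tested at least 2-fold lower. Over all 4920 genes tested in both ductal and alveolar cells, 50.1% had a ratio above 0 in alveolar cells and 49.9% below, with 82 (1.67%) at least 2-fold higher there and 20 (0.407%) at least 2-fold lower. For *Epcam* cells the counts were 37 (0.837%) and 3 (0.0679%) of 4419. A call in one class and none in another is no test of a difference between them.

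The last question is whether the ductal cells that still showed *Hhip* RNA differed from those that did not. Cells were thinned to 2000 UMIs, which left 590 control and 826 CKO cells. No *Hhip* UMI was seen in 122 control cells (20.7%) and 476 CKO cells (57.6%), and at least 3 were seen in 56.6% and 6.90%. A cell with no UMI at this depth need not lack the gene's RNA, and a cell with 1 may hold free RNA.

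For some of the genes split this way, cells with and without *Hhip* UMIs differed less than the libraries did, and for others they did not. *Igf1* was at 1071 CPM in CKO cells with no *Hhip* UMI and 1247 CPM in those with at least 1, against 254 and 360 CPM in control. *Entpd1* was at 455 and 553 CPM in CKO and at 82.0 and 95.1 CPM in control. The intervals with and without *Hhip* UMIs lay apart for *Igf1* in CKO, and overlapped for *Igf1* in control and for *Entpd1* in both libraries. *Ptch1* was at 97.7 and 101 CPM in CKO and at 45.1 and 35.3 CPM in control. *Nnat* was at 666 and 767 CPM in CKO and at 164 and 106 CPM in control. Of these 4 genes, each was higher in CKO than in control on both sides of the split. In control, *Lgr6* was at 49.2 CPM without and 161 CPM with *Hhip* UMIs, and *Cdkn1a* at 94.3 and 205 CPM, each further apart than the libraries were. In CKO the values were 241 and 329 CPM for *Lgr6* and 290 and 286 CPM for *Cdkn1a*. *Acta2* differed in order, with 1381 and 1724 CPM in CKO but 1275 CPM in control cells with no *Hhip* UMI and 550 CPM in those with at least 1. In control a similar share of both, 45.1% and 47.4%, held an *Acta2* UMI, so the higher sum came from more UMIs in the cells that had any.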

How the data were processed

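Gene by cell matrices were read as deposited: the values are counts (UMIs per gene and cell), which the authors made with Cell Ranger, version 6.1.0 per the file headers and 3.1.0 per the labels. Cells were chosen by the rule stated above. Members and lists were chosen with earlier results of these data known. UMIs were summed over cells of a class and library and scaled to 1000000 (CPM); log2 ratios are CKO over control with exact conditional binomial 95% intervals. Genes named are the 12 with the largest and 12 with the smallest ratio, the 12 leading over alveolar cells, genes of the rule, of fixed lists, and those the paper names; some of these are not reported here. MAST was not used, since cells are not replicates. No doublet caller was run, and the setting without likely doublets left 675 control and 999 CKO ductal cells. Positions are from GENCODE vM21, which held 32235 of 32285 gene IDs. The code was tested on simulated data. Alternatives changed the rule, depth, filters, averaging and scaling. The work was run in Python 3.11.15 with scipy 1.17.1 for intervals, numpy 2.4.6 and pandas 2.3.3 for sums, and matplotlib 3.10.9 for plots.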

Additional observations from a re-analysis of the deposited data

Results flagged for a closer look

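Of 4920 genes tested in both ductal and alveolar myofibroblast-like cells, 62 had log2 ratios of CKO over control on opposite sides of 0 with both intervals off 0. In 7 of these the ratios lay at least 1 apart. For each, the ductal value is given first and the alveolar value second. *Acta2* had 1.08 and −0.27, and *Tagln* 0.95 and −0.14. With no *Des* and *Actg2* limit the ductal values were 0.08 and 0.39. The alveolar values keep that limit and were not taken without it. *Igfbp7*, which encodes an IGF-binding protein, had −0.88 and 0.15. *Ralgps2* had 0.59 and −0.45, and *Lyz1* 0.77 and −0.58. *Dock4* had −0.50 and 0.76, and *Ecm2* −0.50 and 0.53. What set these genes apart is the opposite direction in the classes, each with 1 mouse per group, and the difference between the classes was not tested.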

How the results depend on the processing

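The share of ductal myofibroblast-like cells among stromal cells was 1.27 times as high in CKO as in control (1.16 to 1.39), and 1.40 times with no *Des* and *Actg2* limit. Beside the 98 genes higher and 62 lower, a minimum of at least 20 UMIs, with no detection minimum and 11272 genes tested, gave 410 and 326. Under the other settings the counts ran from 75 to 109 and from 46 to 71. The genes called changed more than these totals. With no *Des* and *Actg2* limit 64 of the 98 and 44 of the 62 were called again. With the rule applied after thinning, where 3907 genes were tested, 65 and 41 were. For ductal over alveolar cells, thinned to 2000 UMIs (added after seeing the data), 52 were higher and 38 lower in place of 83 and 70. Of 7655 values of 333 named genes, 7215 lay within the counting interval and 438, of 139 genes, moved outside it. Of genes at least 2-fold apart, a pair changed sign. *Serpinf1*, −1.03, had 0.47 with the rule applied after thinning to 2000 UMIs, and *Igfbp2*, −1.21, had 0.17 without likely doublets. Genes short of 2-fold changed sign in 373 values, of 90 genes, such as *Cnn1*, 0.96, which had −1.17 with no *Des* and *Actg2* limit. The cause was not tested. Depth limits genes such as *Gli1* and *Wif1*, which rest on few UMIs in 1 library, and 1 mouse per group leaves variation between mice unknown.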
